A study of Mus musculus with 12 samples.

Results

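The mRNAs described here code for 10 heat shock chaperones, with the spermatocyte chaperone *Hspa2* at their head. They are *Hspa2*, *Hspa1l*, *Hspa8*, *Hspa5* and *Hspa9* of the HSP70 family, *Hspa4*, *Hspa4l* and *Hsph1* of the related HSP110 family, and *Hsp90aa1* and *Hsp90ab1* of the HSP90 family. Members were taken by gene symbol from the gene rows of 3 deposited tables, and all 10 were found among 20981 genes. The rule goes by name, but the list was drawn up with earlier results of these data known. The study asked which RNAs were held in complexes with ORF1p, the RNA-binding protein encoded by the retrotransposon LINE-1, in testes that lack *Mael*, a gene of the piRNA pathway that silences transposons. RNA was sequenced in 12 libraries, 3 biological replicates in each of 4 groups. Each table gives a mean normalized count for the IP group and for 1 other group.

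Every group came from testes of C57BL/6 mice of the genotype Mael-/-, 3 months old, so the loss of *Mael* was common to all groups and no wild-type group was included. TOTAL was RNA of the testis extract, to which EDTA had been added at 10 mM, an agent that takes ribosomes apart. INPUT was RNA of fractions 5 to 8 of a sucrose gradient from 10% to 50% on which this extract was run. IP was RNA that came down from INPUT with an antibody against LINE-1 ORF1p, and BO (Beads Only) was RNA that stayed on beads carrying no antibody. The samples were whole testis and therefore hold germ cells and somatic cells together. In such bulk RNA, fewer cells of a type and less RNA per cell cannot be told apart.

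HSP70 proteins bind exposed hydrophobic stretches of unfolded proteins and release them in a cycle driven by ATP. J-domain proteins start this cycle by stimulating ATP hydrolysis, and HSP110 proteins, which are themselves distant HSP70 relatives, help to exchange the bound nucleotide. HSP90 acts later, on nearly folded clients such as kinases and steroid receptors. The testis is known for chaperones of its own: *Hspa2* is made in meiotic spermatocytes, where it is needed to complete meiosis in males, and *Hspa1l* is made mainly in spermatids. Male mice that lack *Hsp90aa1* arrest in meiosis.

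The values are the authors' means of normalized counts per group. They carry no value per library, and the authors' own comparisons, with their standard errors and tests, were not used here. The differences below are therefore given as sizes only, with no spread between replicates and no test. Each difference is log2((IP mean + 1)/(other mean + 1)), called the log2 ratio here. It is set beside the same value for all genes with a mean of at least 10 in either group, a minimum that all 10 members passed in each comparison. In the low values of the tables, 100% of the means up to 2 could be written as whole reads of 3 libraries, within a tolerance of 0.003. A read added between 0.209 and 0.502 normalized counts to its group's mean, depending on the library and table. From this, the mean of *Hspa2* in IP stood for between 13250 and 17532 reads over the 3 libraries and that of *Hsp90aa1* for between 175942 and 232786, whereas that of *Hspa1l* rested on 49 to 66 reads. Counting error alone, taken at the fewest reads that the means allow, was at most 0.047 log2 units (standard error) for 9 members and between 0.28 and 0.48 for *Hspa1l*. It does not cover the differences between animals.

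Chaperones of a family resemble each other, so it was checked in annotated transcripts (GENCODE M21, GRCm38) whether reads of 75 bases, the length sequenced, could be assigned to the right member. The longest run shared by the coding sequences of any of 45 pairs of members was 33 bases, between *Hsp90aa1* and *Hsp90ab1*. Stretches of coding sequence as long as a read show how near the closest HSP90 pair and 2 HSP70 pairs come. Capitals mark the run that a pair shares, and bases outside it may differ.
Hsp90aa1: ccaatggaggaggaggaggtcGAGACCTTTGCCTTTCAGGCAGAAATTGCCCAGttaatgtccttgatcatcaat
Hsp90ab1: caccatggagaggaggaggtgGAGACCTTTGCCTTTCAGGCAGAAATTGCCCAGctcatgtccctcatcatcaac
Hspa2 (beside Hspa1l): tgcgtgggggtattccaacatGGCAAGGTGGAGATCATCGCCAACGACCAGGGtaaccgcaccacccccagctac
Hspa1l (beside Hspa2): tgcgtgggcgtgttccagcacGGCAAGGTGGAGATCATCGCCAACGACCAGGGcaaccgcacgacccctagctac
Hspa2 (beside Hspa8): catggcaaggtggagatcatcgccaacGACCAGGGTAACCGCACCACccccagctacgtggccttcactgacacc
Hspa8 (beside Hspa2): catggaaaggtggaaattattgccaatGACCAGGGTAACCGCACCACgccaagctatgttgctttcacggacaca
Over such a stretch, *Hsp90aa1* and *Hsp90ab1* differed at 13 of 75 bases, *Hspa2* and *Hspa1l* at 7 and *Hspa2* and *Hspa8* at 12. No window of 75 bases in a member's transcript was found in that of another member.

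Copies elsewhere were the larger source of shared sequence. In *Hspa8*, 68.6% of the 75-base windows (1591 of 2320) occurred in transcripts of 11 other genes, 10 of them processed pseudogenes, and in *Hsp90aa1* 53.1% (1703 of 3207) occurred in those of 3 pseudogenes. None of these copies had a row in the tables. The tables carry a separate row for multiply mapped reads, whose mean made up 18.2% of the summed means of genes and rows naming no gene in TOTAL, 7.35% in INPUT, 5.62% in BO and 5.30% in IP. Reads of *Hspa8* and *Hsp90aa1* could have gone there, so their values are uncertain. *Hspa1l* shared 7.09% of its windows with *Hspa1a* and *Hspa1b*. No window of *Hspa2*, *Hspa4*, *Hspa5* or *Hsph1* was shared, and the shares of *Hspa4l*, *Hspa9* and *Hsp90ab1* were below 1%. *Hspa1l* also lies across from the antisense gene *Gm10501*. Libraries were stranded, but the strand setting used in counting genes is not given in the sources used here.

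In IP vs. BO, 9 of the 10 members had a log2 ratio above 1, where 44.3% of 14135 genes did, and none was below -1, where 11.4% of genes were. *Hspa1l*, 1 of the 9, reached the minimum of 10 only in IP, the group where it was higher. With the minimum required in both groups, 8 of 9 members were above 1, where 42.7% of genes were. The median gene itself was at 0.82 in this comparison, so most of these genes were higher in IP. Whether this comes from the scale or from RNA held with ORF1p was not tested. Relative to the median gene, 3 members were above 1 (*Hspa2*, *Hspa9* and *Hsp90aa1*), where 18.4% of genes were above 1 and 24.6% below -1. With groups scaled to equal sums, 9 members were above 1, beside 4903 genes. In IP vs. INPUT, 5 members were above 1 (*Hspa2*, *Hspa4l*, *Hspa9*, *Hsp90aa1* and *Hsph1*), where 20.7% of 14809 genes were, and none was below -1, where 15.3% were. Relative to the median gene, 4 were above 1, where 16.9% of genes were, with 18.4% of genes below -1. With equal sums, 3 were above 1 (*Hspa2*, *Hspa4l* and *Hsp90aa1*), beside 1385 genes. The same 5 were above 1 in IP vs. TOTAL, where 20.5% of 15150 genes were, and again none was below -1, where 27.1% were. Centring on the median gene left 5 above 1, where 21.6% of genes were, and none below -1, where 26.2% were. Scaling to equal sums left 3 above 1, beside 1509 genes. The median gene stood at 0.14 in IP vs. INPUT and at -0.05 in IP vs. TOTAL. The members' median log2 ratio was 1.59 against BO, 0.89 against INPUT and 0.88 against TOTAL. The 3 comparisons use the same IP libraries and are not independent of each other.

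**Figure D1:**
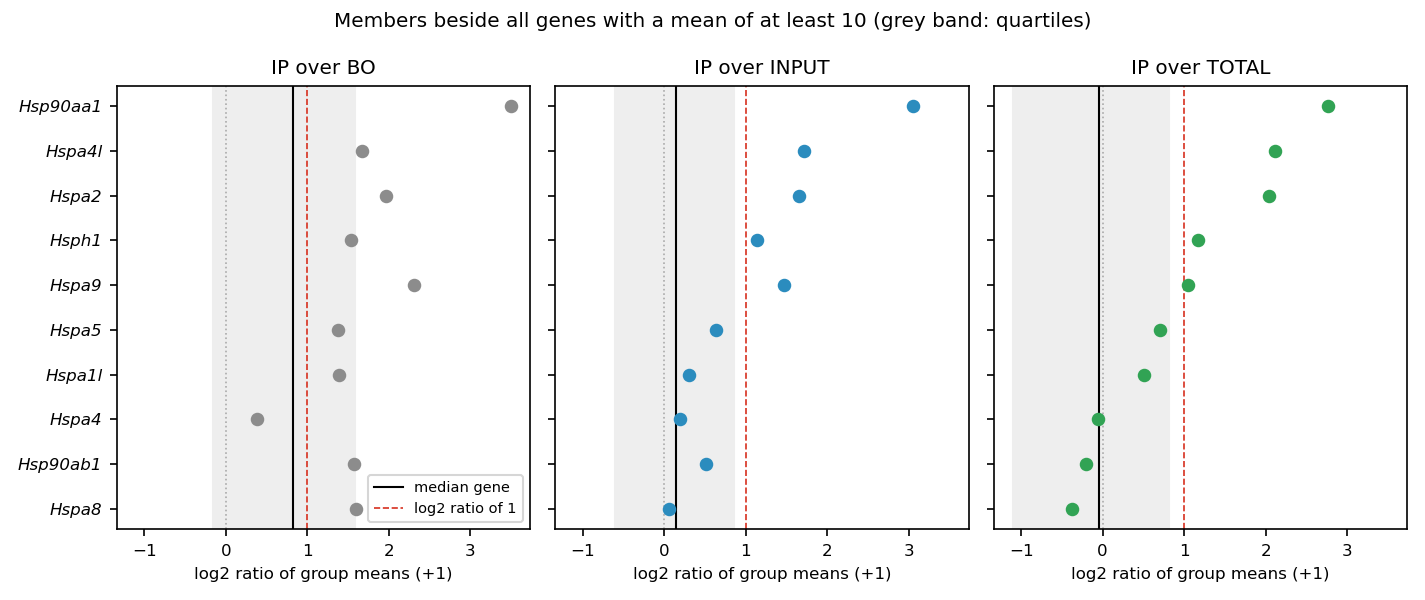
Log2 ratio of group means (mean + 1) of the 10 chaperone mRNAs in IP over BO, IP over INPUT and IP over TOTAL, each point being 1 gene. The grey band spans the quartiles of all genes with a mean of at least 10, the black line is the median gene and the dashed line a log2 ratio of 1. *Hsp90aa1* is the rightmost point of each panel, at 3.50, 3.05 and 2.76, and *Hspa8* lies at 1.60, 0.06 and -0.38.

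*Hspa2* is a single-exon gene on chromosome 12 (76404176 to 76406938, plus strand, GRCm38). Its mean normalized count was 1385 in TOTAL and 5698 in IP in their common table, 1812 in INPUT and 5696 in IP in the next, and 1117 in BO and 4352 in IP in the last. IP was the higher group in each table, by 4.11-fold over TOTAL, 3.14-fold over INPUT and 3.89-fold over BO. The log2 ratios were 2.04, 1.65 and 1.96, which placed *Hspa2* at percentile 95.8 among genes against TOTAL, 92.6 against INPUT and 85.1 against BO. Its share of the summed gene means was 0.00846% in TOTAL and 0.0243% in IP. *Hspa2* and *Hsp90aa1* were the members that stayed above a log2 ratio of 1 in all 3 comparisons under each of the 5 other scalings and pseudocounts tried.

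*Hspa1l* codes for the HSP70 of spermatids and lies on chromosome 17 (34972703 to 34979285, plus strand). Its means were 14.7 in TOTAL, 17.2 in INPUT and 5.62 in BO, beside IP means of 21.3, 21.5 and 16.4 in the same tables. It had few reads in every group. Its log2 ratio was 0.51 over TOTAL, 0.30 over INPUT and 1.39 over BO, and with counting errors of 0.28 to 0.48 the first and second of these are within about 2 standard errors of counting. The value over BO became 0.57 when centred, 0.64 with equal upper quartiles, 0.75 with a pseudocount of 10 and 1.12 with equal sums. The spermatid markers *Prm1*, *Prm2*, *Tnp1* and *Acrv1* were low as well, with a summed mean of 77.0 in TOTAL, 23.2 in INPUT, 1.42 in BO and 2.33 in IP, the last from the table with TOTAL and the others each on their own table's scale. Whether the few spermatid transcripts and the level of *Hspa1l* are related was not tested.

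*Hspa8*, the constitutive HSP70 of the cytosol, lies on chromosome 9 (40800984 to 40810087, plus strand) and hosts the small nucleolar RNA genes *Snord14c*, *Snord14d* and *Snord14e*. Its mean was 11932 in TOTAL and 9162 in IP, and its share of the summed gene means was 0.0729% in TOTAL and 0.0391% in IP. Against INPUT, its means were 8838 and 9183 in IP, and against BO they were 2317 and 7007. Thus *Hspa8* was 0.768 times its TOTAL level in IP and had a log2 ratio of 0.06 over INPUT, which became -0.09 relative to the median gene, -0.26 with equal upper quartiles and -0.48 with equal sums. Its percentile was 41.4 against TOTAL, 46.9 against INPUT and 75.1 against BO.

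*Hspa5* (BiP, chromosome 2, 34771970 to 34777547, plus strand) serves the endoplasmic reticulum and *Hspa9* (mortalin, chromosome 18, 34937414 to 34954357, minus strand) the mitochondrial matrix. The mean of *Hspa5* was 14714 in TOTAL and 23977 in IP, 15508 in INPUT and 24004 in IP, and 7043 in BO and 18334 in IP. Its log2 ratios of 0.70, 0.63 and 1.38 lay between percentiles 67.2 and 71.6 in the 3 comparisons. The mean of *Hspa9* was 7874 in TOTAL and 16312 in IP, 5907 in INPUT and 16365 in IP, and 2528 in BO and 12490 in IP. Its log2 ratios were 1.05, 1.47 and 2.30, so that the organelle chaperones differed from each other: *Hspa9* was at percentiles 80.9, 89.7 and 91.5 and *Hspa5* lower in each comparison. The value of *Hspa9* over TOTAL was only just above 1 and became 0.53 when the groups were scaled to equal sums, and that over INPUT became 0.94.

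*Hspa4l*, an HSP110 abundant in the testis, lies on chromosome 3 (40744495 to 40796103, plus strand). Its mean was 4498 in TOTAL and 19461 in IP, 5935 in INPUT and 19549 in IP, and 4668 in BO and 14910 in IP. The log2 ratio was 2.11 over TOTAL (4.33-fold), 1.72 over INPUT and 1.68 over BO, at percentiles 96.4, 93.6 and 77.5. Its nearest member over the 3 log2 ratios was *Hspa2*, at a Euclidean distance of 0.30 log2 units.

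*Hspa4* (chromosome 11, 53259814 to 53300457, minus strand), the broadly expressed HSP110, had a mean of 7596 in TOTAL and 7315 in IP, 6402 in INPUT and 7349 in IP, and 4312 in BO and 5604 in IP. Its log2 ratios were -0.05, 0.20 and 0.38, and it lay at percentiles 49.9, 52.0 and 37.2. Relative to the median gene, its value over BO was -0.44. *Hsph1* (chromosome 5, 149614287 to 149636376, minus strand), the stress-inducible HSP110, had means of 960 in TOTAL and 2158 in IP, 983 in INPUT and 2169 in IP, and 572 in BO and 1655 in IP. Its log2 ratios were 1.17, 1.14 and 1.53, and those over TOTAL and INPUT became 0.65 and 0.61 when the groups were scaled to equal sums. Of the 3 HSP110 mRNAs, *Hspa4l* and *Hsph1* were thus higher in IP than in TOTAL and *Hspa4* stood at the level of the median gene.

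*Hsp90aa1* (chromosome 12, 110690605 to 110702728, minus strand) codes for the inducible HSP90, which has also been linked to piRNA production. It gave the highest ratio of the 10 members in each comparison. Its mean was 11147 in TOTAL and 75655 in IP (6.79-fold, log2 ratio 2.76), 9190 in INPUT and 76007 in IP (8.27-fold, 3.05), and 5119 in BO and 57992 in IP (11.3-fold, 3.50). Among all genes that passed the minimum, it ranked 110 by its ratio over TOTAL, 20 over INPUT and 86 over BO. *Hsp90aa1* held 0.0681% of the summed gene means in TOTAL, 0.0565% in INPUT and 0.0348% in BO, and 0.323% in IP.

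The paralog *Hsp90ab1* (chromosome 17, 45567775 to 45573271, minus strand), the constitutive HSP90, had a mean of 12163 in TOTAL and 10527 in IP. Against INPUT, its means were 7373 and 10520 in IP, and against BO they were 2699 and 8040. Its log2 ratios were -0.21, 0.51 and 1.57, at percentiles 45.8, 62.9 and 74.5. When the groups were scaled to equal sums, its value over INPUT became -0.02. The HSP90 paralogs thus differed in their ratios, with *Hsp90aa1* far above the median gene over TOTAL and *Hsp90ab1* below it. Over the 3 log2 ratios, the member nearest to *Hsp90ab1* was *Hspa8*, at a distance of 0.49, and the member nearest to *Hsp90aa1* was *Hspa2*, at 2.20.

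**Figure D2:**
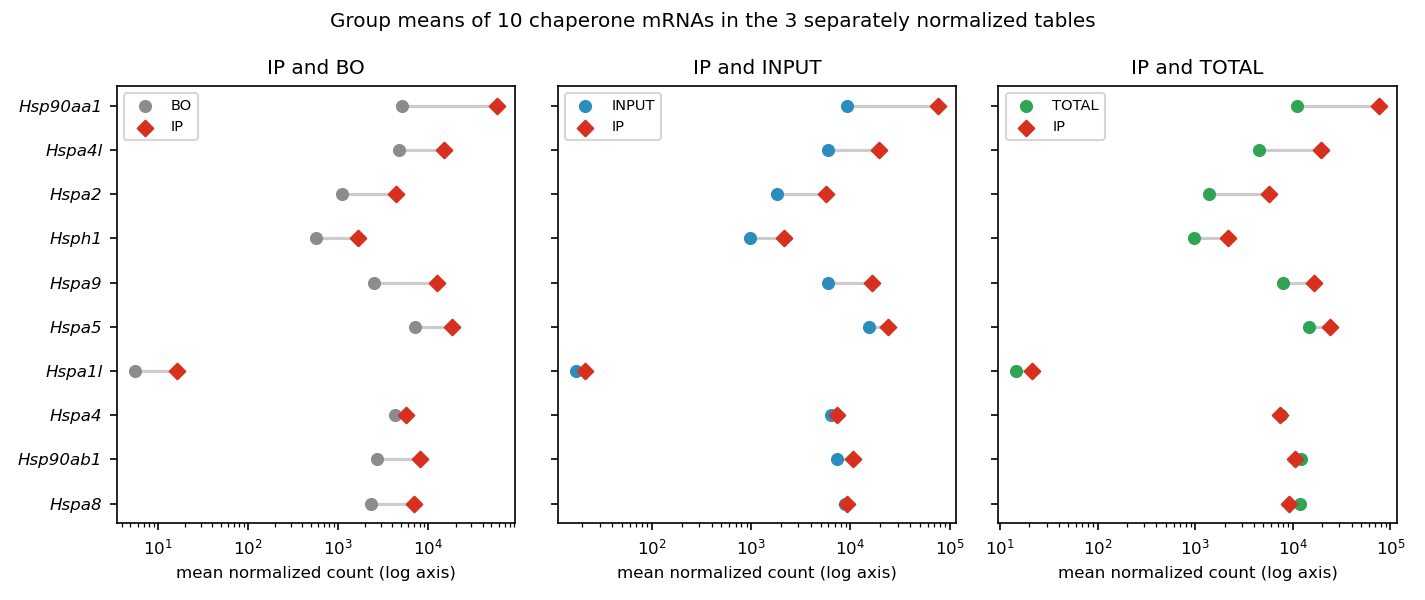
Mean normalized counts (log axis) of the 10 chaperone mRNAs in IP (diamonds) and in BO, INPUT or TOTAL (circles), drawn for each separately normalized table. A grey line joins the 2 group means of a gene. In the panel of TOTAL, the IP mean of *Hsp90aa1* is 75655 beside 11147, while those of *Hspa4*, *Hsp90ab1* and *Hspa8* lie close to or below the TOTAL means.

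To compare levels between genes, means were divided by the length of the longest annotated transcript. Per kilobase in TOTAL, *Hsp90ab1* came first with 4826 normalized counts, before *Hspa5* with 4007, *Hspa8* with 3778, *Hsp90aa1* with 3397, *Hspa9* with 2582 and *Hspa4* with 1645. *Hspa2* followed with 548, *Hspa4l* with 475, *Hsph1* with 202 and *Hspa1l* with 5.96. In IP, in the same table, *Hsp90aa1* led with 23059 per kilobase and *Hspa5* came next with 6530, *Hspa9* with 5350, *Hsp90ab1* with 4178 and *Hspa8* with 2901. *Hspa2* then had 2256, *Hspa4l* 2053, *Hspa4* 1584, *Hsph1* 453 and *Hspa1l* 8.63. Whether neighbours in these orders differ beyond their spread between replicates was not tested. Lengths were not corrected for windows shared with other transcripts, 68.6% in *Hspa8* and 53.1% in *Hsp90aa1*. Reads from such windows could be missing from their means, so the places of these 2 members in the orders are uncertain. The order also depends on the transcript chosen: with the median transcript length, 2 members kept their place in TOTAL and 6 in IP, the annotated transcripts of *Hspa4l* having a longest of 9479 bases and a median of 1341.

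INPUT, TOTAL and BO share no table with each other, so they were bridged through IP, as the difference between log2 ratios, and centred on the median gene because the tables were normalized separately. On this scale, *Hspa4l* and *Hspa2* were higher in INPUT than in TOTAL by 0.54 and 0.53 log2 units. *Hsp90ab1* was at -0.57, *Hspa8* at -0.29 and *Hspa9* at -0.27. The quartiles over genes were -0.59 and 0.48, and *Hspa4l*, *Hspa2* and *Hsp90ab1* lay at percentiles 78.0, 77.7 and 25.7. In all, 5 members lay above the median gene of 14706 genes and 5 below, and their median was 0.03. For BO relative to INPUT, values ran from 0.59 for *Hspa4l* to -0.99 for *Hspa8*, over 14062 genes. The others lay between -0.54 (*Hspa1l*) and 0.37 (*Hspa4*), with *Hspa2* at 0.24 and *Hsp90aa1* at 0.10. The quartiles over genes were -0.73 and 0.79, and *Hspa8* alone among the members lay outside them. The BO mean of *Hspa1l* was below the minimum of 10 and rested on 11 to 24 reads, so its value is uncertain. The signs of these differences depend on the scaling. In BO relative to INPUT, 5 members lay above the median gene, 5 above 0 with equal upper quartiles and 0 with equal sums. Such scaling moves all genes alike, and the share of all genes above 0 was not counted. The count of 0 is therefore no result about the members. *Hsp90aa1* was near the median gene in both differences.

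**Figure D3:**
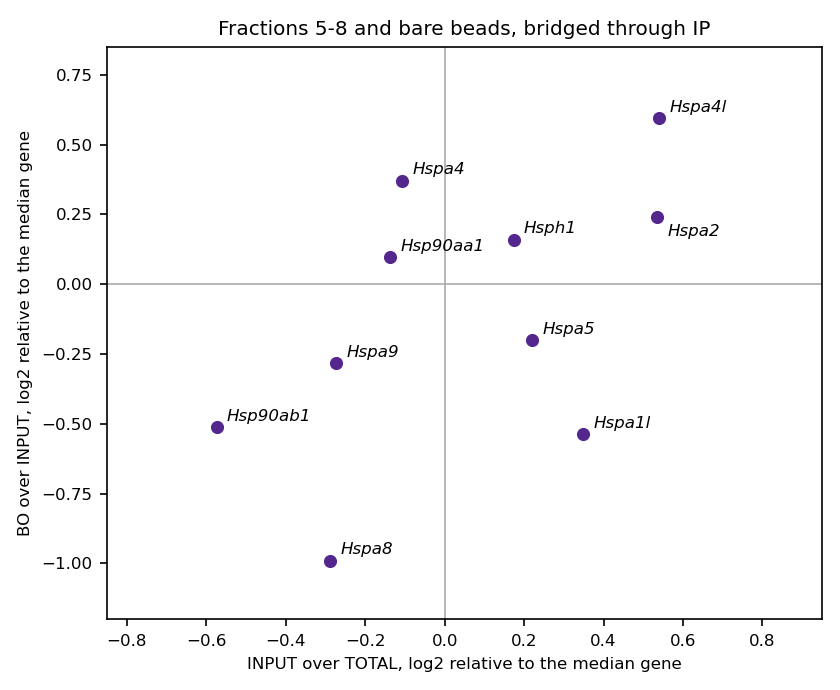
Log2 difference relative to the median gene for the 10 chaperone mRNAs, INPUT over TOTAL on the x axis and BO over INPUT on the y axis, each bridged through the IP means of separately normalized tables. *Hspa4l* (0.54 and 0.59) and *Hspa2* (0.53 and 0.24) lie at the upper right, and *Hsp90ab1* (-0.57 and -0.51) and *Hspa8* (-0.29 and -0.99) at the lower left. The quartiles over genes, which are not drawn, are -0.59 and 0.48 on the x axis and -0.73 and 0.79 on the y axis. With groups scaled to equal sums, no member lies above 0 in BO over INPUT, and with equal upper quartiles 5 do. The share of all genes above 0 on these scales was not counted.

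Among the 12747 genes with a mean of at least 10 in all groups, the gene nearest to *Hspa2* over the 3 log2 ratios was *Cenpe*, a kinetochore motor, at a distance of 0.045. Its ratios were 2.01 over TOTAL, 1.68 over INPUT and 1.97 over BO. *Ddx19b*, *Ppp1r3fos*, *Recql* and *Cep85* followed at distances of 0.11 to 0.14. The genes nearest to *Hspa8* were *Ccdc9*, *C230052I12Rik* and *Adprhl2*, at distances of 0.037 to 0.089. With centred ratios and a pseudocount of 10, 3 of the 5 genes named for *Hspa2* were still among its nearest 5 and none of the 3 named for *Hspa8*.

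Transcript length and base composition varied among the members: annotated coding transcripts ran from 2394 bases (*Hspa8*) to 9479 (*Hspa4l*) and GC content from 39.5% (*Hspa4l*) to 53.6% (*Hspa2*). Across the 10 members, Pearson's r between the log2 ratio over TOTAL and the log2 length of the longest annotated transcript was 0.28 (0.36 with the coding transcript), and with GC content it was -0.46. Across 14448 genes with a known length, r was 0.44 for the longest transcript. Genes share their libraries and are not independent, so these are descriptions only. *Hspa2* and *Hspa4l*, with log2 ratios over TOTAL of 2.04 and 2.11, were the members of highest and lowest GC content.

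The partners of these chaperones were followed in lists of related genes. Of 9 other HSP70, HSP110 and HSP90 genes, 1 was above a log2 ratio of 1 over TOTAL and 0 were below -1, with a median of 0.35, where 20.5% of all genes were above and 27.1% below. *Hspa13* had 1.05 and *Hspa12a* -0.81. In IP vs. INPUT, 0 of the 9 were above 1 and 1 below -1 (all genes: 20.7% and 15.3%), with a median of 0.33. In IP vs. BO the counts were 3 and 1 (all genes: 44.3% and 11.4%), with a median of 0.32. The inducible HSP70 genes *Hspa1a* and *Hspa1b*, which share sequence with *Hspa1l*, had 0.49 and 0.35 over TOTAL.

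Of the J-domain proteins that start the HSP70 cycle, 12 of 42 were above 1 and 5 below -1 over TOTAL (all genes: 20.5% and 27.1%), with a median of 0.35, from *Dnajc4* at -1.85 to *Dnajc6* (auxilin, which strips clathrin coats) at 2.17. Over INPUT, 20 of 41 were above 1 and 1 below -1 (all genes: 20.7% and 15.3%), and over BO 30 of 41 and 2 (all genes: 44.3% and 11.4%). Among 27 exchange factors and co-chaperones, 5 were above 1 and 6 below -1 over TOTAL, 6 and 0 over INPUT and 18 and 0 over BO, beside the same shares of all genes. Their counts over TOTAL, and that above 1 over INPUT, were near those shares. With the minimum required in both groups, *Dnajc22*, *Dnajb13* and *Unc45b* drop out where they had passed through 1 group, and each count past the fold in these lists was lower by at most 1. The ends of the exchange factor list over TOTAL were *Bag1*, an HSP70 exchange factor, at -2.06 and *Ppp5c*, a phosphatase that binds HSP90, at 1.86. The medians of this list were -0.28 over TOTAL, 0.25 over INPUT and 1.39 over BO, beside -0.05, 0.14 and 0.82 for all genes.

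Chaperonins, the ring-shaped folding machines of the cytosol and mitochondria, had medians of 0.67 over TOTAL, 1.40 over INPUT and 2.42 over BO, and 2, 8 and 10 of 11 were above 1, where 20.5%, 20.7% and 44.3% of all genes were. *Tcp1*, a subunit of the cytosolic ring, had 1.20 over TOTAL, and *Hspe1*, the lid of the mitochondrial ring, had -1.86. Of the small heat shock proteins, 5 had a mean of at least 10 in both TOTAL and IP, and 0 of these were above 1 and 3 below -1 over TOTAL, where 20.5% and 23.6% of genes with this minimum were. Their median was -1.37, and *Hspb11*, which codes for a protein of intraflagellar transport, was at -0.05 with means of 296 and 287. *Cryab*, *Hspb2* and *Hspb9* reached the minimum in TOTAL but not in IP, so that the minimum itself set their direction, and they are not counted. The mean of *Cryab*, the lowest of the list by ratio, was 72.3 in TOTAL and 1.57 in IP. Over INPUT, 1 of the 4 with the minimum in both groups was above 1 and 1 below -1 (genes with this minimum: 20% and 13.4%), and over BO 3 of 4 and 0 (42.7% and 10.7%). Heat shock factors are a family of transcription factors. Of these, 3 of 4 were above 1 over TOTAL and over INPUT and 4 of 4 over BO, beside shares of 20.5%, 20.7% and 44.3% of all genes. *Hsf3* reached the minimum over BO in IP alone. With the minimum required in both groups, 3 of 3 were above 1 over BO, where 42.7% of genes were. *Hsf1* had 0.21 over TOTAL and *Hsf5*, a factor of spermatocytes, 2.97.

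**Figure D4:**
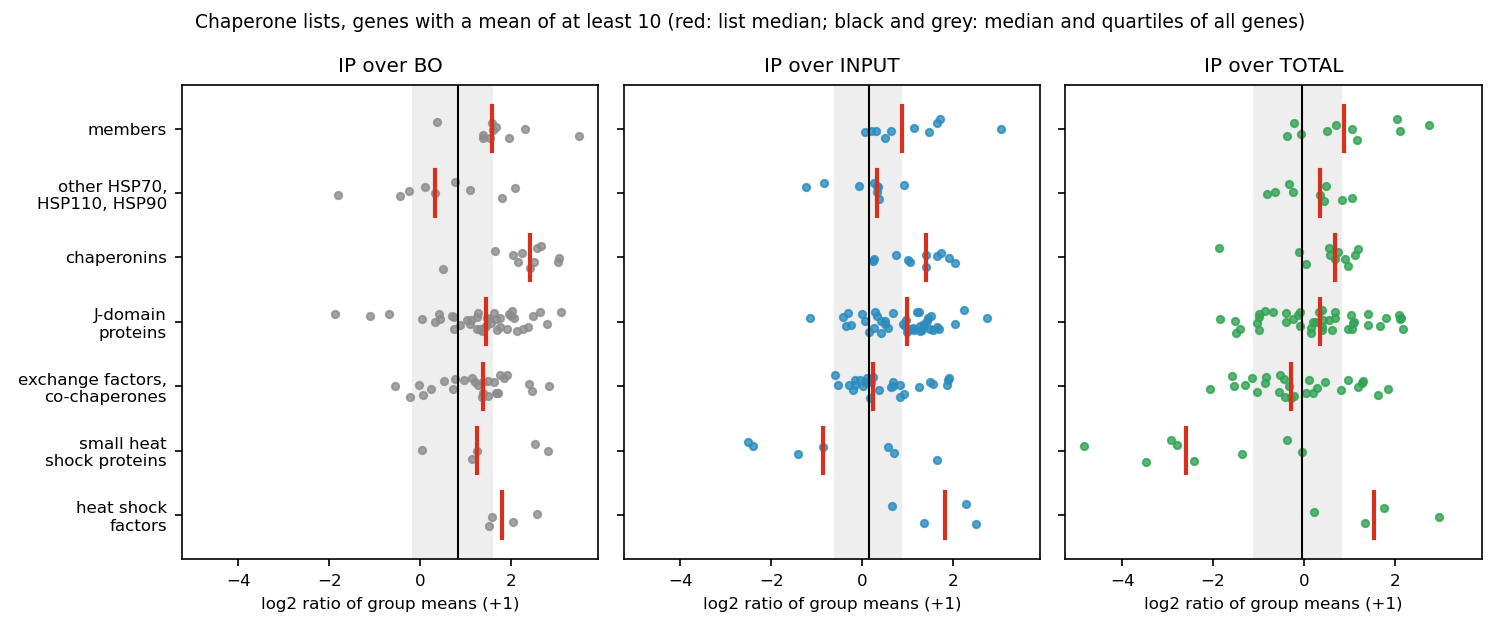
Log2 ratio of group means (mean + 1) of single genes (points) in 7 chaperone lists, for IP over BO, IP over INPUT and IP over TOTAL, with genes at a mean of at least 10. Red lines are list medians, the black line and grey band the median and quartiles of all genes. Over TOTAL, heat shock factors have a median of 1.55 and the 10 members one of 0.88. Points include genes that reached the minimum in 1 group only, among them 3 small heat shock proteins in the panel of TOTAL, whose direction the minimum set.

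Markers of testis cell types differed in the same comparisons. The germ cell markers *Ddx4*, *Dazl*, *Sycp1* and *Sycp3* had a summed mean of 31676 in TOTAL, 32660 in INPUT, 15236 in BO and 168599 in IP (from the table with TOTAL, each table having its own scale), and all 4 were above 1 in each comparison, where 20.5% of all genes were over TOTAL, 20.7% over INPUT and 44.3% over BO. The 5 Sertoli cell markers summed to 17840 in TOTAL and 4124 in IP, with 4 below -1, and the 5 Leydig cell markers to 77573 in TOTAL and 15226 in IP, with 5 below -1, where 27.1% of all genes were. Over BO, 3 of the Sertoli cell markers were below -1 and 0 above 1, whereas 0 of the Leydig cell markers were below -1 and 2 above 1 (all genes: 11.4% below -1 and 44.3% above 1). Of the members, 5 of 10 were above 1 over TOTAL, beside 20.5% of all genes, and 3 of 10 (*Hspa2*, *Hspa4l* and *Hsp90aa1*) when the groups were scaled to equal sums, where 1509 of 15150 genes were above 1. The part of cell type in the members' values was not tested. *Mael* itself had means of 0.65 in TOTAL, 0.50 in BO and 0 in INPUT and IP, as a knockout check.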

How the data were processed

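The 12 libraries (3 per group) were made by the authors from rRNA-depleted RNA with a stranded kit. Per the labels' processing notes, the tools were STAR 2.6.0c and DESeq2 1.24.0 with the genome build mm10. The authors deposited 3 tables of 802920 rows each, for IP beside BO, INPUT or TOTAL. In each, 20981 rows are genes, 4 name no gene and the rest are repeat loci. The deposited signal is the mean of normalized counts of each group, rounded to 3 decimals and normalized separately in each table. The authors' fold changes, standard errors, test statistics and p-values in the same tables were not used, and neither was a table of repeat subfamilies.

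Rows that name no gene (unmapped, multiply mapped, ambiguous or outside genes) numbered 4 and were left out. They held 37.9% of the summed gene and such rows in BO, 30.5% in INPUT, 38.6% in TOTAL and 22.1% in IP. Groups were taken from the sample labels. The planned edgeR or limma test needed values per sample and was not run on group means, so sizes, percentiles and counts past a log2 ratio of 1 or -1 are given instead, with a pseudocount of 1. Named genes are the 10 members, the highest and lowest gene over TOTAL of each chaperone list, and the genes nearest to *Hspa2* (5) and *Hspa8* (3). *Hspa1a* and *Hspa1b* were named for their shared sequence, and *Gm10501* and the small nucleolar RNA genes of *Hspa8* for their positions. The germ cell and spermatid markers were named as whole lists, and *Mael* as a knockout check. Listed genes that reached the minimum in 1 group only (*Hspb2*, *Hspb9*, *Dnajc22*, *Dnajb13*, *Unc45b* and *Hsf3*) were named after their values were seen. The members and lists were chosen with earlier results of these data known. Transcript sequences, lengths and positions came from GENCODE M21. The steps ran in Python 3.11.15 with numpy 2.4.6, pandas 2.3.3 and matplotlib 3.10.9. The log2 ratio and the calls past its threshold were tried on simulated data, and the other steps were not. Repeat loci inside member genes were not analysed here.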

Additional observations from a re-analysis of the deposited data

How the results depend on the processing

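Alternatives were centring on the median gene, scaling groups to equal sums or equal upper quartiles over genes, pseudocounts of 0.1 and 10, and, for counts over all genes, no filter or a mean of at least 100. Of 150 member values, 122 kept their sign and their side of a log2 ratio of 1, 9 changed sign (*Hspa4*, *Hspa8*, *Hspa1l* and *Hsp90ab1*), 19 changed side, and 0 values past the fold reversed. Members above 1 in IP vs. BO numbered 9 in the report, 9 with equal sums and 8 with a pseudocount of 10. They numbered 3 when centred and 3 with equal upper quartiles. With equal sums, they numbered 3 rather than 5 in IP vs. INPUT and 3 rather than 5 in IP vs. TOTAL. Over all genes, IP vs. BO gave 6262 higher and 1616 lower, 2600 and 3475 when centred, and 2669 and 3400 with equal upper quartiles. With equal sums, it gave 4903 and 2151, and with a pseudocount of 10 it gave 5470 and 1379. IP vs. INPUT gave 3060 higher and 2273 lower, 1385 and 4252 with equal sums, 1950 higher with equal upper quartiles, and 1358 lower at a mean of at least 100, where fewer genes were counted. IP vs. TOTAL gave 3102 higher, and 1509 with equal sums. Requiring the mean of 10 in both groups, added after the data were seen, left 8 of 9, 5 of 10 and 5 of 10 members above 1 over BO, INPUT and TOTAL, beside 42.7%, 20% and 20.5% of genes. Scalings to equal sums and to equal upper quartiles were added to the bridged differences after the data were seen. In BO relative to INPUT, they left 0 and 5 members above 0, beside 5 above the median gene. In INPUT relative to TOTAL, they left 5 and 6, beside 5. The shares of all genes above 0 on these scales were not counted. With the median transcript length, 6 members kept their place in the order in BO, 3 in INPUT, 6 in IP and 2 in TOTAL. No paired analysis was possible because the gene tables hold group means only, and for the same reason leaving out each replicate was not run. Counting error is sizeable for *Hspa1l* alone among the members, and the spread between animals is in none of the values given here.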
